A study of Mus musculus with 26 samples.

Results

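The Myc, Max and Mxd network was followed across RNA-seq libraries of TCRTg101, CD8+ T cells with a transgenic receptor specific for the C1498 leukemia. The 9 genes were Myc, Mycn, Max, Mxd1, Mxd3, Mxd4, Mxi1, Mnt and Mga, chosen by name from 35944 genes counted, and all 9 passed the filter on low counts. The receptor transgenes were carried on a Rag2-/- background, and naive cells were transferred into mice, which received C1498 intravenously 1 day later. The labels give every sample as C57BL/6, wild type and 6 weeks old. They do not list the transgenes or the Rag2 deletion that the study's methods describe for the Tg101 strain.

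Low-input RNA-seq was performed on sorted cells in 14 libraries. The 3 control libraries were naive TCRTg101 at day 0 (replicates 1 and 2) and TCRTg101 from untreated mice at day 18 (replicate 3), all from spleen. Cells from livers of leukemia-bearing mice were taken at an early time (day 7, 2 libraries), a mid time (days 13 and 14, 3 libraries) and a late time (days 16 and 18, 2 libraries). Spleens of leukemia-bearing mice gave 2 early libraries (day 7), 1 mid library (day 14) and 1 library of undivided cells (day 18), which had kept their CellTrace Violet dye. A further library of naive cells was prepared with oligo-dT and stayed out of every test. Since controls came from spleen, leukemia and the liver site cannot be told apart in the liver comparisons. Nothing in the labels says whether libraries of a group came from separate mice, so that p-values measure the spread between these libraries only.

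Myc and Mycn are transcription factors that bind DNA only as partners of Max, mainly at the E-box CACGTG, and raise the expression of genes for ribosome assembly, nutrient uptake and cell growth. The Mxd proteins, Mxi1 and Mnt also pair with Max, bring the Sin3 corepressor to the same sites and so oppose Myc, while Mga pairs with Max inside a Polycomb complex named PRC1.6. In T cells, Myc is switched on soon after antigen recognition and is needed for the metabolic change that precedes division.

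Start sites in the RefSeq table for GRCm38.p6 were available for 8 of the 9 genes (all but Myc). Windows of 300 bases around these starts, 250 of them upstream, were searched on both strands for the E-box CACGTG and for TTTGGCGC, a form of the site that E2F factors bind. Max, Mnt and Mxd4 held an E-box (3 of 8 genes), against 7.15% of 32851 windows in the table. Here and for the E2F-type letters, genes are set beside a share of windows, and Mxi1 had several windows, so the units differ. The E-boxes are shown in capitals with 10 bases on either side, since they are the letters through which the network could bind its own genes. Each follows the strand of its gene, Max at chr12:76962236-76962261 (minus), Mnt at chr11:74830791-74830816 (plus) and Mxd4 at chr5:34187914-34187939 (minus).
Max: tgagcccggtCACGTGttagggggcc
Mnt: ccacccaagcCACGTGtgcgcgcgcg
Mxd4: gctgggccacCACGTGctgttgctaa

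The Max E-box lay across the RefSeq start itself, and those of Mnt and Mxd4 began 123 and 219 bases before it. Among the 8 genes, the E2F-type letters occurred in the window of Mycn alone, in 2 copies, against 0.514% of all windows. The 172 bases before the GENCODE start of Mycn (chr12:12941915-12942086, minus strand) are shown because Mycn had the largest fold change of the 9 genes in late liver, with both copies in capitals, beginning 105 and 90 bases before that start.
Mycn: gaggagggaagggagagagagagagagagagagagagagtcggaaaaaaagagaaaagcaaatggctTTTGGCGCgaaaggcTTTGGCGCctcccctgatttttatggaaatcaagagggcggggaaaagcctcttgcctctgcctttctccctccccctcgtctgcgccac

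A match describes letters only, and binding was not measured.

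Libraries held 22918996 to 71358287 estimated counts (median 34349318). The study sequenced in 2 batches, which the labels do not assign to samples. The prefixes TG and XC in the sample titles were taken here to stand for them, and every fit with a series term and every within-series ratio rests on that reading. Replicate 1 of the control, mid liver and late liver groups was TG while all others were XC. The 7 markers of CD8 T cells summed to between 3683 and 8492 CPM (counts scaled to library size) in every low-input library. Markers of other cells differed between groups. The 11 myeloid genes summed to 913, 155 and 13.3 CPM in control replicates 1 to 3 against 12.5 to 53.8 CPM in mid and late liver, and the 6 erythroid genes to 4955, 20800.5 and 137 CPM against 5.59 to 215 CPM. The 10 hepatocyte genes summed to 303, 22.8 and 2.12 CPM in controls, nearly all of it Trf (transferrin) in replicates 1 and 2 (302 and 22.4 CPM), and to 4.13 to 233 CPM in mid liver and 368 and 105 CPM in late liver. The defining Alb was at 0.0326 CPM or less in controls and at 127 and 24.9 CPM in late liver, while Trf was at 60.6 and 20.7 CPM there. The 4 endothelial genes, led by Pecam1, summed to 119.97 to 169 CPM in controls and 74.1 and 149 CPM in late liver, and of the others Stab2 was at 14.0, 1.32 and 1.01 CPM in controls and 0.126 and 0.0289 CPM in late liver, and Clec4g at 0.733 CPM or less in both groups. In bulk libraries, fewer cells of a type and less RNA per cell cannot be told apart, and the part of other cells in the results was not tested. The early liver libraries stood apart from each other, with 15 proliferation genes summing to 2157 CPM in replicate 1 and 515 CPM in replicate 2.

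In resting cells, the network consisted mainly of Max and Myc, followed by Mxd1, Mga, Mxd4 and Mxi1. Compared per length as TPM, a unit that corrects for transcript length and depth, control libraries held a mean of 76.3 ± 33.3 TPM of Max and 69.1 ± 13.9 TPM of Myc (SD, n = 3 here and for the other control means). Mxd1 was at 18.8 ± 3.59 TPM, Mga at 18.2 ± 7.83 TPM, Mxd4 at 15.2 ± 2.93 TPM and Mxi1 at 13.4 ± 6.01 TPM, which are neighbours that did not differ beyond their spread. Mnt followed at 5.003 ± 1.88 TPM. Mxd3 at 1.18 ± 0.562 TPM and Mycn at 0.107 ± 0.0575 TPM were the lowest. Max and Myc also overlapped in their spread.

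At the late time in the liver, Mycn, Mxd3 and Max were higher than in control cells and Mga was lower. These 4 of 9 genes passed the test (edgeR quasi-likelihood, Benjamini-Hochberg adjusted over all 14616 genes tested), when 37.5% of all genes tested did. In the upward direction 3 of 9 were called, against 19.8% of all genes, and in the downward direction 1 of 9, against 17.7%. At the mid time, Myc, Mycn and Mxd3 were called higher (3 of 9, with 17.3% of all genes called higher), none was called lower (13.9% of all genes), and 31.3% of all genes were called in either direction. The median log2 fold change of the 9 genes was 0.07 at the late time and -0.29 at the mid time, beside -0.03 and -0.06 over all genes tested. With either late library left out, or with the XC series alone, 0 members and 0 of all genes passed in late liver versus control. Without control replicate 1, 149 of all genes passed at the late time, Mycn alone among the members, and 1 gene at the mid time, with 0 members.

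**Figure D1:**
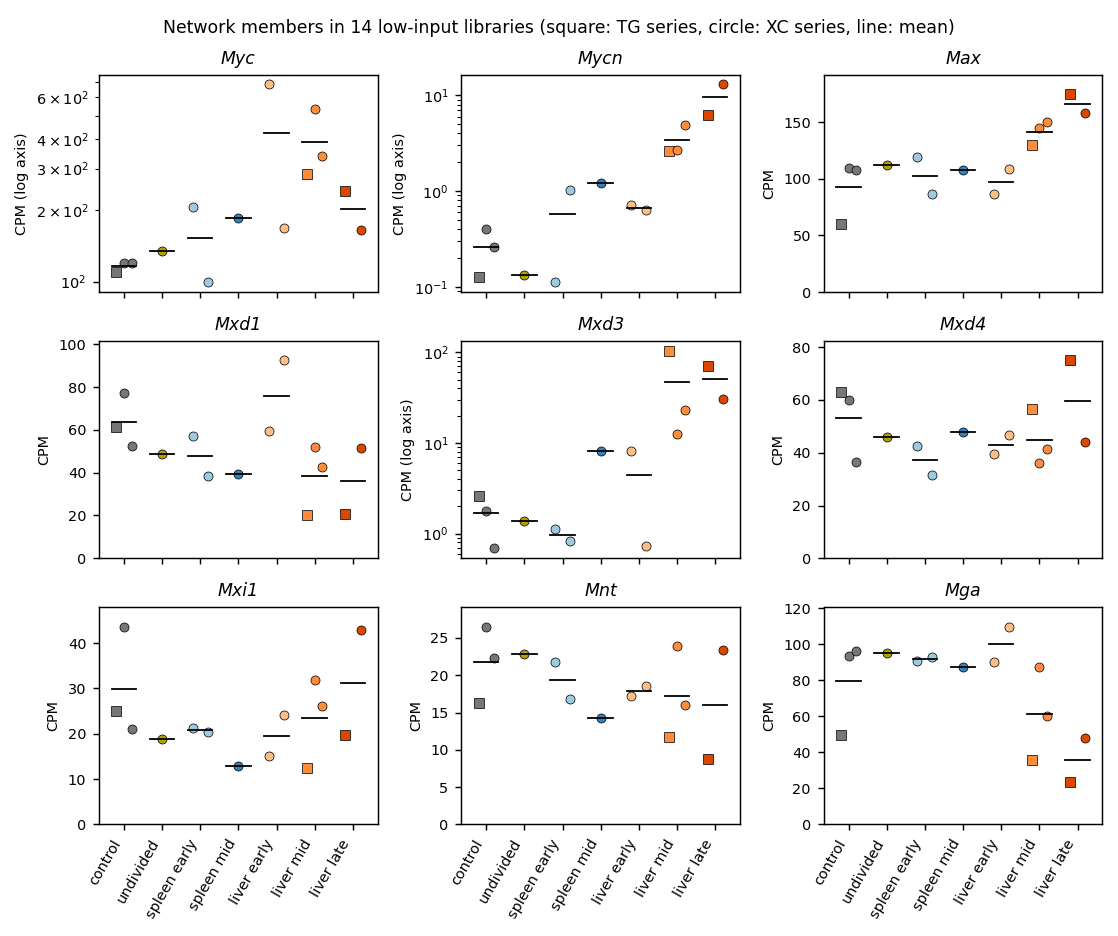
Levels of the 9 network members in the 14 low-input libraries, in CPM scaled by TMM (trimmed mean of M-values), with 1 point per library, lines at group means, squares for the TG and circles for the XC series. Log axes are used for Myc, Mycn and Mxd3, and Mycn goes from 0.128 to 0.399 CPM in controls to 6.29 and 13.0 CPM in late liver.

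In CPM, Myc itself was uniform in control cells and variable after leukemia challenge. It was at 109.5, 119.8 and 120.3 CPM in the 3 controls. The 3 mid liver libraries were at 286, 537 and 338 CPM, all above the controls. Both late liver libraries, at 241 and 165 CPM, lay above every control and below every mid library. In TPM, late liver, at 74.0 and 90.3, overlapped the controls, which were less uniform at 54.6, 70.3 and 82.3. Myc rose at the mid time by a log2 fold change of 1.69 ± 0.50 (SE, adjusted p = 0.0372, edgeR), and was higher in 3 of 3 libraries. Each of the 6 fits that left out a mid liver or control library lost this call, with log2 fold changes between 1.38 and 1.95. At the late time the log2 fold change was 0.80 ± 0.55 (adjusted p = 0.262, edgeR), and between late and mid liver it was -0.89 ± 0.57 (adjusted p = 0.922). Within series, mid liver over control was 2.61 in TG and 3.64 in XC, and late over control was 2.20 and 1.38.

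The early liver libraries were far apart in Myc, with 681 CPM in replicate 1 and 168 CPM in replicate 2. Both were above all controls. The log2 fold change over control was 1.84 ± 0.56 with an adjusted p of 0.454 (edgeR). It was 2.52 (adjusted p = 0.00212) without replicate 2 and 0.49 without replicate 1, a fit in which 1 gene of all genes was called. In spleen at the same day, Myc was at 207 and 99.3 CPM, which straddled the controls, and the difference of early liver from early spleen was 1.47 ± 0.62 on the log2 scale (adjusted p = 0.544, edgeR). Undivided cells at day 18 were at 135 CPM and the mid spleen library at 185 CPM, each a single library.

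Mycn, the family member better known from neural and progenitor cells, started from almost nothing. In the controls it was at 0.128, 0.399 and 0.261 CPM, from 9, 20 and 8 estimated counts. It reached 2.63, 2.69 and 4.86 CPM in mid liver. The late liver libraries were the highest of all 14, at 6.29 and 13.0 CPM. No control overlapped either group. The log2 fold change was 3.73 ± 0.41 at the mid time (adjusted p = 0.0168) and 5.31 ± 0.45 at the late time (adjusted p = 0.00627, edgeR), and by its p Mycn ranked 3 and 2 among 14616 genes. Over the 14 late alternatives, the log2 fold change lay between 5.12 and 5.55 and the adjusted p between 4.88e-23 and 0.151. Within series, late liver was 49.3 times the control in TG and 39.4 times in XC. The late libraries were both above the mid libraries, by 1.58 ± 0.39 on the log2 scale (adjusted p = 0.910, edgeR). In TPM, Mycn stayed far below Myc, at 1.42 and 4.82 TPM in late liver where Myc was at 74.0 and 90.3 TPM.

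Max, the shared partner, changed less. It was at 59.7, 109.9 and 107.9 CPM in controls, with the TG library the lowest. Mid liver held 129, 145 and 150.0 CPM. Late liver held 174 and 158 CPM, above all mid and control libraries in this unit. In TPM the groups overlapped. Late liver was at 65.1 and 110 TPM, controls at 38.0, 93.2 and 97.8 TPM and mid liver at 52.6, 128 and 112 TPM. The log2 fold change was 0.92 ± 0.24 at the late time (adjusted p = 0.0204) and 0.61 ± 0.21 at the mid time (adjusted p = 0.0531, edgeR). Without control replicate 1, the late value was 0.62 (adjusted p = 0.0995). Of the 14 late alternatives, 8 kept the call. Those that lost it included counts scaled from TPM (0.73, adjusted p = 0.0723) and no series term (0.84, adjusted p = 0.0672, edgeR). Within series, late liver over control was 2.92 in TG and 1.45 in XC. The Max transcripts Max-202 and Max-205 share a 27-base second exon, which in Max-202 adds residues ahead of the DNA-binding region. Of the summed TPM of Max-202 and Max-201, the form without this exon, Max-202 made up 31.9 to 36.1% in controls. It made up 34.3 to 47.4% in mid liver and 35.6 and 44.0% in late liver, so that the ranges overlapped. Max-205, which lacks a 108-base exon of the others, was left out of this share. It was at 5.26, 31.3 and 34.2 TPM in controls, where Max-202 was at 8.34, 13.7 and 14.5 TPM, so the share does not give the use of the 27-base exon.

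**Figure D2:**
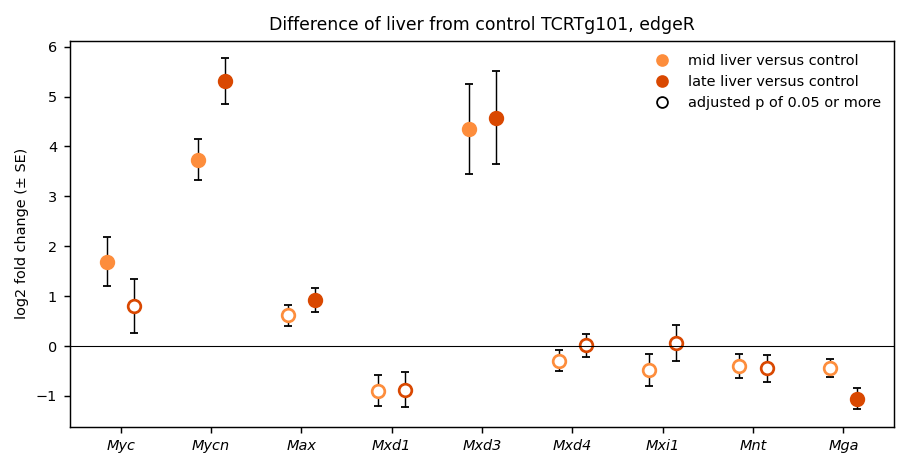
Log2 fold change (± SE, edgeR) of each member in mid and late liver against control, with filled points for an adjusted p under 0.05. Mycn and Mxd3 lie above 3.7 on the log2 scale at both times, and Mga at -1.06 is the only filled point below 0.

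Among the antagonists, Mxd3, which is known to be made in dividing cells, was the one that rose. In controls it was at 2.62, 1.76 and 0.685 CPM. Mid liver held 105, 12.5 and 23.3 CPM and late liver 71.0 and 30.7 CPM, with the TG library the highest in each group. All 5 libraries were above all controls. The log2 fold changes were 4.35 ± 0.90 (adjusted p = 0.0223) and 4.57 ± 0.94 (adjusted p = 0.0147, edgeR), and within series late liver was 27.1 times the control in TG and 25.2 times in XC. Early liver replicate 1 was at 8.17 CPM and replicate 2 at 0.722 CPM. The early log2 fold change of 2.07 ± 0.91 (adjusted p = 0.497, edgeR) became -0.57 without replicate 1. The mid spleen library was at 8.21 CPM, while undivided cells held 1.36 CPM. Across the 14 libraries the log2 CPM of Mxd3 and of Mki67, a marker of cycling cells, had a Pearson r of 0.94, which is a description over libraries that share groups and series. Among the other members r with Mki67 went from -0.65 (Mga) to 0.76 (Mycn), with Myc at 0.67.

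Mxd1, which is linked to rest and differentiation in blood cells, was lower in mid and late liver without passing the test. Controls were at 61.1, 77.2 and 52.7 CPM. Mid liver was at 20.5, 51.8 and 42.7 CPM and late liver at 20.9 and 51.5 CPM, all under the lowest control, from which 51.8 and 51.5 CPM were hardly apart. The log2 fold changes were -0.89 ± 0.31 (adjusted p = 0.0575) and -0.88 ± 0.35 (adjusted p = 0.0777, edgeR). Without the day 18 control, both passed, at -1.18 (adjusted p = 0.0443) and -1.14 (adjusted p = 0.0396, edgeR). Without control replicate 1 they were -0.46 (adjusted p = 0.247) and -0.37 (adjusted p = 0.388), and in the XC series alone -0.47 (adjusted p = 0.316) and -0.35 (adjusted p = 0.542). Within series, mid liver over control was 0.334 in TG and 0.728 in XC. Early liver replicate 2, which had the lower Myc, held the highest Mxd1 of all libraries, 92.5 CPM.

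Mxd4, Mxi1 and Mnt did not pass the test at either time. Mxd4 was at 62.9, 60.01 and 36.4 CPM in controls and 75.0 and 44.1 CPM in late liver, with a log2 fold change of 0.01 ± 0.23 (adjusted p = 0.976, edgeR). Mnt was at 16.3, 26.5 and 22.3 CPM in controls and 8.74 and 23.3 CPM in late liver, a log2 fold change of -0.45 ± 0.27 (adjusted p = 0.205). Mxi1 was at 25.1, 43.6 and 21.1 CPM in controls and 19.7 and 42.9 CPM in late liver (0.07 ± 0.36, adjusted p = 0.897). These groups overlapped for all 3 genes. In early liver and early spleen the Mxi1 log2 fold changes were -0.90 ± 0.39 (adjusted p = 0.481) and -0.80 ± 0.36 (adjusted p = 0.803, edgeR).

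Within Mxi1, however, the transcripts differed. The gene has a main upstream transcript whose exon 1 is at chr19:53310518-53310973, a minor upstream transcript whose exon 1 is at chr19:53313066-53313301, and 5 transcripts that begin with an exon at chr19:53329413-53329720 or close to it. Kallisto gave an estimate for each, and both upstream transcripts were counted together. The bases before the RefSeq starts of the main upstream and the downstream transcripts are shown (plus strand, chr19:53310256-53310505 and chr19:53329163-53329412) because the share of upstream transcripts was higher in mid and late liver. Neither held an E-box or the E2F-type letters, so no base is in capitals.
Mxi1 upstream start: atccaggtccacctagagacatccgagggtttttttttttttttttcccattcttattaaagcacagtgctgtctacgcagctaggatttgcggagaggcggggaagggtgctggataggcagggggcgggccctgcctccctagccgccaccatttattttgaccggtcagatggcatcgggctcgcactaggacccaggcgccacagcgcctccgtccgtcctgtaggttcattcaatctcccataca
Mxi1 downstream start: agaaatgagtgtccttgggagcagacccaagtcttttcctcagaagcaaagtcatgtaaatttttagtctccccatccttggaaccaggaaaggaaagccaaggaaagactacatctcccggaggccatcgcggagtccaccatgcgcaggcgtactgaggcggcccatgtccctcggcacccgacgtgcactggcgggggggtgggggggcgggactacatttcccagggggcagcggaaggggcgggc

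Upstream-start transcripts made up 16.4, 12.3 and 12.2% of the Mxi1 TPM from both starts in controls and 12.7% in undivided cells. In mid liver the share was 47.3, 39.8 and 39.2%, and in late liver 38.9 and 59.7%. All 5 were above every other low-input library, of which the mid spleen library was the highest at 21.7%. The early liver libraries were at 18.0 and 11.4%, and the early spleen libraries at 17.3 and 7.83%. In TPM, the upstream transcripts went from 1.43, 2.40 and 1.31 in controls to 1.58, 5.74 and 4.34 in mid liver, and the downstream transcripts from 7.32, 17.2 and 9.403 to 1.76, 8.69 and 6.73. This contrast was chosen after the values were seen, and it was not tested. With only the main transcript of each start, mid and late liver were at 39.1 to 76.5%, and early liver replicate 1, at 32.9%, was the highest of the others. The oligo-dT library of naive cells, at 2.83%, was under all low-input controls, and the part of library preparation in these estimates was not tested.

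**Figure D3:**
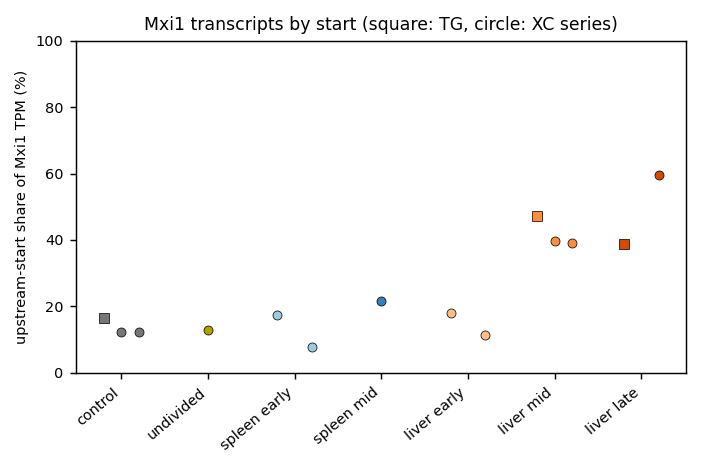
Share of Mxi1 TPM from upstream-start transcripts, in percent of the TPM from both starts, with 1 point per low-input library (squares TG, circles XC). Mid and late liver lie between 38.9 and 59.7%, and all other groups at 21.7% or less.

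Mga was the only member called lower. It was at 49.7, 93.7 and 96.1 CPM in controls, 35.6, 87.4 and 60.2 CPM in mid liver and 23.5 and 47.7 CPM in late liver. In each group the TG library was the lowest. Both late libraries lay below all controls. The log2 fold change was -1.06 ± 0.21 at the late time (adjusted p = 0.0122) and -0.44 ± 0.18 at the mid time (adjusted p = 0.0896, edgeR). Within series, late liver over control was 0.473 in TG and 0.503 in XC. Over the 14 late alternatives the log2 fold change lay between -1.19 and -0.99 and the adjusted p between 0.000248 and 0.162. The call was lost in 5 of them, which were no series term, the XC series alone and leaving out control replicate 1 or either late library. Early liver, at 90.0 and 109.8 CPM, was near the XC controls. The late to mid difference was -0.62 ± 0.21 on the log2 scale (adjusted p = 0.910, edgeR).

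Set against each other in TPM, the sum of Myc and Mycn was 54.7, 70.4 and 82.4 TPM in controls and the sum of the antagonists Mxd1, Mxd3, Mxd4, Mxi1 and Mnt was 44.3, 69.3 and 47.2 TPM, a ratio of 1.23, 1.02 and 1.75. The ratio was 7.90 and 1.67 in early liver. With protein-coding transcripts alone it was 1.67, 1.37 and 2.51 in controls and 11.7 and 2.67 in early liver, which put early replicate 2 above the controls instead of within their range. With all transcripts, the ratio was 1.30, 5.04 and 2.94 in mid liver. It was also above the control range outside the liver, at 2.74 and 1.80 in early spleen, 2.50 in mid spleen and 1.90 in undivided cells, where 1.80 and 1.90 were hardly apart from it. With protein-coding transcripts alone these were 4.02, 2.31, 3.36 and 2.61, of which 2.31 was within the control range. Both late libraries, at 1.26 and 1.25, were within the control range. The composition of the Mxd genes (Mxd1, Mxd3, Mxd4 and Mxi1) shifted more than their sum, since Mxd3 made up 1.31 to 3.90% of their TPM in controls, 72.7, 21.0 and 37.1% in mid liver and 56.6 and 34.3% in late liver. The share of Mxd1 went from 36.3 to 42.8% in controls to 4.99 and 19.7% in late liver. RNA of the 2 sides says nothing of protein, and no p was computed for these sums.

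**Figure D4:**
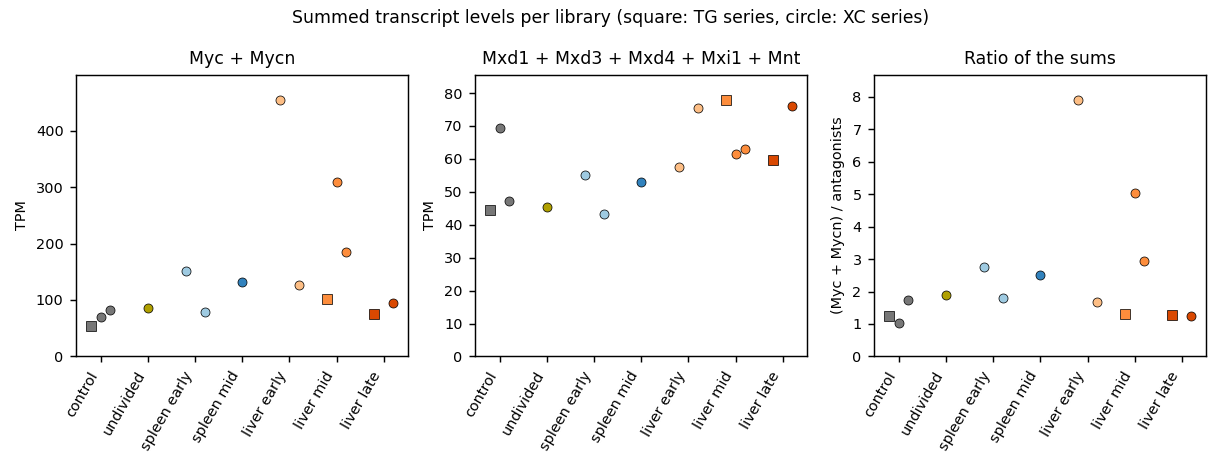
Summed TPM of Myc and Mycn, summed TPM of 5 antagonists and their ratio, with 1 point per low-input library (squares TG, circles XC). The ratio ranges from 1.02 to 1.75 in controls, peaks at 7.90 in early liver replicate 1 and is 1.26 and 1.25 in late liver.

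In the other comparisons 0 members were called by edgeR, and 0% of all genes were called in each of them. In early liver versus control, 3 members had an unadjusted p under 0.05 (Myc, Mycn and Mxi1) beside 1496 genes in all, and DESeq2 called 1 member (Myc) and 351 genes. In late versus mid liver these numbers were 2 members and 783 genes, with 0 members and 32 genes by DESeq2. In undivided versus control they were 0 members and 183 genes, with 0 and 0 by DESeq2, and in early spleen versus control 0 members and 972 genes, with 0 members and 14 genes by DESeq2. In early liver versus early spleen they were 1 member (Myc) and 1395 genes, with 0 members and 61 genes by DESeq2. Without early liver replicate 2, Myc and Mxd3 passed in early liver versus control, in a fit that called 1903 genes.

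Genes that Myc is known to raise were read beside the network. The lists of Myc targets were chosen with earlier results of these data known, so their counts describe and do not test. Of 22 genes of the nucleolus and ribosome assembly, 16 were called higher and 0 lower at the mid time and 1 higher and 0 lower at the late time, with median log2 fold changes of 1.04 and 0.54. Over all genes 17.3% were called higher at the mid time and 19.8% at the late time, so that the late count was under the background share. The late call was Bop1, a factor for the large ribosomal subunit (0.97 ± 0.30, adjusted p = 0.0337, edgeR). Between late and mid liver the median was -0.46, and 0 of the 22 passed. DESeq2 called 6 of them at the late time, and without control replicate 1 edgeR called 0 at either time.

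Of 18 genes of nutrient uptake and metabolism, 15 rose at the mid time and 11 at the late time, and 0 fell, with medians of 1.55 and 1.49, against the same shares of all genes. Hk2, the hexokinase that starts glycolysis, went from 1.38 to 2.44 CPM in controls to 29.7 and 30.5 CPM in late liver (log2 fold change 4.04 ± 0.91, adjusted p = 0.0173, edgeR). Shmt1 of one-carbon metabolism (3.42 ± 0.89, adjusted p = 0.0251) and the pyruvate kinase Pkm (2.30 ± 0.36, adjusted p = 0.009) had the next largest late changes. Of 10 genes of the cell cycle and translation, 7 rose at the mid time and 6 at the late time, and 0 fell (medians 1.17 and 1.24), among them E2f1 (4.02 ± 0.85), Cdk4 (1.61 ± 0.36) and Cdc25a (1.31 ± 0.30) at the late time. All 15 proliferation genes, which mark dividing cells and move with division whatever drives it, rose at both times, with medians of 4.92 and 4.87, led at the late time by Ccnb2 (5.87 ± 1.34), Ccna2 (5.85 ± 1.34) and Bub1 (5.77 ± 1.38). Without control replicate 1, when 149 of all genes passed at the late time and 1 at the mid time, 1 of the 18 metabolic genes and 0 of these 10 and of the 15 proliferation genes passed at the late time, and 0 of all 3 lists at the mid time.

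**Figure D5:**
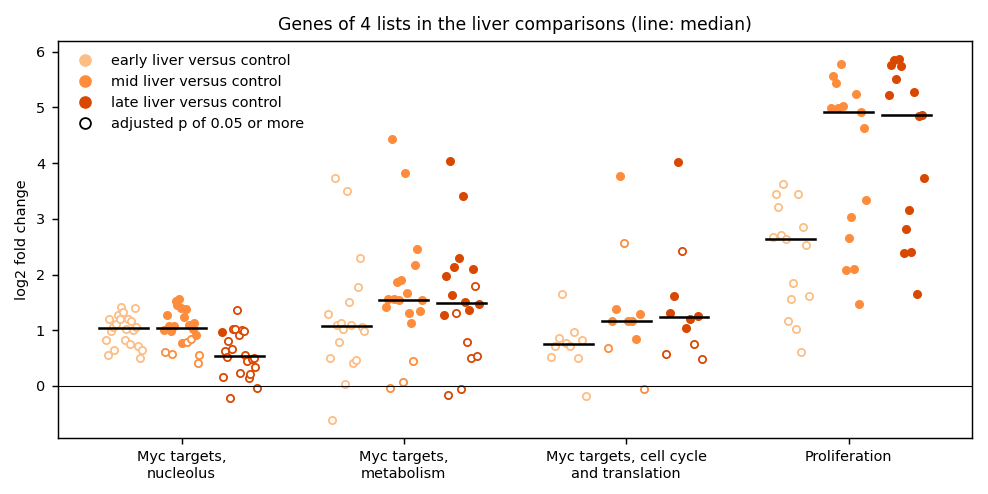
Log2 fold changes of the genes of 3 lists of Myc targets and of the proliferation list in early, mid and late liver against control, with 1 point per gene, filled for an adjusted p under 0.05 (edgeR), and lines at medians. Nucleolar genes have medians of 1.03, 1.04 and 0.54 in this order, and metabolic genes 1.08, 1.55 and 1.49.

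Of 7 genes that Myc is known to repress, some of them together with Miz1, 3 rose and 2 fell at the mid time and 2 rose and 1 fell at the late time. The list includes inhibitors of the cell cycle. Of all genes 19.8% rose and 17.7% fell at the late time, and the late counts of this list and of the small lists that follow differ little from these shares or rest on 1 or 2 genes. Cdkn1b, an inhibitor of cyclin-dependent kinases, fell by 1.28 on the log2 scale at the late time (SE 0.40, adjusted p = 0.0361, edgeR), while the inhibitor Cdkn2c rose (3.01 ± 0.53, adjusted p = 0.0103), as did Ndrg1 (2.57 ± 0.82, adjusted p = 0.0432).

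Of 8 genes, 7 coactivators of Myc and Miz1 itself (Zbtb17), the paired ATPases Ruvbl1 (1.58 ± 0.41) and Ruvbl2 (1.59 ± 0.49) were higher at the late time, as they were at the mid time, and 0 were lower. Of 8 partners of Mga in PRC1.6, the E2F partner Tfdp1 (2.96 ± 0.49) and the chromatin protein Cbx3 (1.09 ± 0.22) rose at the late time and Rybp fell by 0.81 (SE 0.24, adjusted p = 0.0322, edgeR). At the mid time Tfdp1, Cbx3 and E2f6 rose and 0 fell. Of 9 genes acting on the stability of Myc protein, Cip2a, an inhibitor of the phosphatase that removes Myc phosphate (3.46 ± 0.70), and the ubiquitin ligase subunit Skp2 (1.19 ± 0.38) rose at the late time. In the same list the deubiquitinase Usp28 (-3.24 ± 0.58) and the kinase Gsk3b (-0.89 ± 0.24) fell. Usp28 went from 130.5, 223 and 179.5 CPM in controls to 10.3 and 27.1 CPM in late liver. Of 5 further network genes tested out of 6, the corepressor Sin3b was higher at the late time (0.64 ± 0.17) and Mlxipl, at 1.71 CPM or less in every low-input library, was lower at the mid time. Mlxipl and E2f6 were named after their values were seen.

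Over the 14 low-input libraries and 5854 genes of at least moderate level (mean log2 CPM of 5 or more), the pattern most like that of Myc was that of Ddx21 (Pearson r of log2 CPM 0.971), Ipo4 (0.971) and Ddx27 (0.965). Ddx21, an RNA helicase of the nucleolus, was also on the nucleolar list. For Max they were Prkaca (0.938), B4galnt1 (0.920) and Tradd (0.917), and for Mxd4 they included March2 (0.883) and Hes6 (0.874). These values share libraries, depth and groups.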

How the data were processed

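The authors sorted TCRTg101, prepared low-input libraries sequenced on an Illumina HiSeq in 2 batches and quantified them with kallisto against the mouse transcriptome (mm10/GRCm38 per the labels). The deposited files give an estimated count and a TPM for each of 118783 transcripts in 26 runs, and the TPM is scaled by the authors' tool to transcript length and depth. Here the estimated counts of each gene's transcripts (GENCODE vM21, 98.3% matched) and of runs whose titles differ by a trailing mark alone, taken as repeat runs of a library though the labels do not say so, were added up, rounded, and tested with edgeR 4.0.16 (quasi-likelihood, robust, TMM) in R 4.3.3, with group and series as terms. Liver and undivided comparisons used 11 libraries, spleen comparisons 14. Genes with 10 counts in at least 6 libraries were kept (14616 and 15465), and an adjusted p under 0.05 was called. Each SE of a log2 fold change is its absolute value divided by the square root of the F statistic of the quasi-likelihood test. Levels are CPM scaled by TMM. TPM was summed per gene for comparisons between genes. DESeq2 1.42.0, other normalizations, filters, models and subsets were alternatives. The test was checked on simulated data. The 9 members, the Myc target lists and the marker lists were chosen with earlier results of these data known. From each list, up to 3 genes with the largest late rise and 3 with the largest fall were named. Sequences were read from a RefSeq table of start windows (GRCm38.p6). Some genes that these rules would name are not reported here.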

Additional observations from a re-analysis of the deposited data

Results flagged for a closer look

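The mid spleen library (day 14), which entered no comparison, held more Myc (185 CPM), Mycn (1.23 CPM) and Mxd3 (8.21 CPM) than any low-input control. In the oligo-dT library of naive cells, likewise outside the comparisons, Myc (120.4 CPM), Max (171 CPM), Mxd4 (111 CPM) and Mnt (76.7 CPM) were above the highest low-input control, by very little for Myc. Both early liver libraries were above the control mean of Mga (1.13 and 1.38 times it) and both late liver libraries below it (0.295 and 0.598 times), a difference that was not tested. That mean includes the TG control (49.7 CPM), and both early liver libraries (90.0 and 109.8 CPM) were XC, as were the controls at 93.7 and 96.1 CPM, which lie between them. No group had 4 or more libraries, so that single outlying libraries were not sought.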

How the results depend on the processing

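Of 380 recomputed fold changes of members, 315 kept their direction and their side of the threshold, 37 lost a call, 17 gained one and 11 changed sign. Where controls enter, the fit with day 0 controls is the same as that without control replicate 3. It is counted under both names here and in the other counts of alternatives. All changes of sign were in values that had not passed: Mxd4 in late liver (-0.0186 with no count filter, -0.14 in the XC series alone and with day 0 controls, -0.14 to 0.22 with a library left out), Mxi1 in late liver (-0.053 with counts scaled from TPM, -0.24 with day 0 controls, -0.24 to 0.43 with a library left out) and Mxd3 in early liver (-0.57 to 2.94 with a library left out).

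Among late liver calls, 2699 genes and 2 members passed without the series term and 0 and 0 in the XC series alone, where a single late library remained, and leaving out a library gave 0 to 4143 genes and 0 to 5 members. At the mid time 1388 genes passed without the series term, 2361 with day 0 controls and 0 in the XC series (0 members), DESeq2 called 5 members, and leaving out a library gave 0 to 3157 genes and 0 to 3 members. Late counts were 149 genes without control replicate 1, 3399 without control replicate 2 and 0 without either late library. Mid counts were 1 gene without control replicate 1 or 2, 2361 without control replicate 3, and 0 without mid replicate 1 or 3. In early liver 1483 genes and 2 members passed with no count filter, 351 and 1 with DESeq2, 19 genes with day 0 controls, and 0 to 1903 genes and 0 to 2 members with a library left out. Early liver versus early spleen gave 984 genes and 2 members with no filter, 61 genes with DESeq2, and 0 to 971 genes and 0 to 2 members with a library left out. No filter and DESeq2 gave 434 and 32 genes in late versus mid liver and 643 and 14 in early spleen versus control, where leaving out a library gave 0 to 165. No filter gave 330 genes in undivided versus control. The causes were not tested.

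Of 464 recomputed counts for the gene lists, 224 moved by more than 1.5 times. Groups of 1 to 3 libraries limit every call, and where a library left out leaves 1 in a group, that library is assumed to vary like the others. Mycn in controls rests on 8 to 20 estimated counts per library.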

Other observations

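Marker lists of cell types gave further values. Of 7 CD8 T cell genes, Cd3e (log2 fold change 0.64) and Cd3g (0.67), which are chains of the T cell receptor complex, were called higher in late liver (edgeR, adjusted p under 0.05), and 0 were called at the mid time. Of all genes, 19.8% were called higher and 17.7% lower in late liver, and 17.3% and 13.9% in mid liver, and the small counts given here are to be read against these shares. Of 2 CD4 T cell genes, Foxp3 was higher at the late time (2.19), at only 2.14 and 3.03 CPM in late liver. Cd4 itself went the other way without being called (-2.04 at the late time and -1.70 at the mid time), and 0 were called at the mid time. Of 4 B cell genes tested, 2 were lower at the mid time and 0 were called at the late time. Of 7 myeloid genes tested, 5 were lower at the mid time and 3 at the late time, among them the complement genes C1qa (-4.67) and C1qb (-4.74). Of 6 hepatocyte genes tested, 4 were higher at the mid time and 5 at the late time, led by Alb (12.36). Of 5 erythroid genes tested, 5 were lower at the mid time and 1 at the late time, and the 1 liver endothelial gene tested was called at neither time.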
